A study of Mus musculus with 22 samples.

Results

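The genes described here encode the route from blood glucose to lactate: glucose carriers, the enzymes that split glucose to pyruvate, the lactate dehydrogenase subunits, the lactate transporters with their chaperone, and the proteins that gate pyruvate at the mitochondrion. They were chosen by name as the isoforms of photoreceptors, Müller glia and the RPE, and all 35 were found among the 53801 genes of the bulk count tables and the 19324 genes of the single-cell matrix. Photoreceptors are known for aerobic glycolysis, in which most glucose is turned to lactate although oxygen is present, and they depend on glucose that the RPE takes from the choroidal blood and passes on. Lactate leaves or enters cells with a proton through monocarboxylate transporters, most of which need the chaperone basigin to reach the membrane, and both Müller glia and the RPE handle lactate released in the outer retina. Pyruvate that is not reduced to lactate crosses into mitochondria through a carrier and is oxidized by pyruvate dehydrogenase, which the pyruvate dehydrogenase kinases switch off.

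Mice lacking adiponectin receptor 1 (*AdipoR1-/-*, here KO) were compared with WT mice of the same C57BL/6J strain. The KO mice are homozygous for a targeted allele that every tissue carries, so the RPE and the retina both lacked the receptor. Bulk RNA-Seq of 1-month-old mice (P30) comprised 4 libraries of retina and 4 of RPE from each genotype. Single-cell RNA-Seq of dissociated retina comprised a single library of each genotype at the ages P19, P25 and P30, every one made from 4 pooled retinae. Single-cell libraries at P30 came from another batch and instrument than those at P19 and P25, each batch holding both genotypes.

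Retina libraries held 22734843 to 35118164 counts and RPE libraries 20133143 to 38409496. The single-cell libraries held 5439, 4367 and 2558 cells for WT mice at P19, P25 and P30, with a median of 3407, 4357 and 1416 UMIs per cell, and 5300, 5633 and 3467 cells for KO mice, with a median of 3568, 2523 and 1349 UMIs. Among the 26764 cell barcodes, 49 occurred in more than 1 library, 15 of them shared by the KO and WT libraries at P30.

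Adipor1, the targeted gene, separated the genotypes in every library. In WT retinas it stood at 605, 601, 589 and 607 CPM (library size scaled by TMM within each tissue; replicates 1 to 4 here and below), and in KO retinas at 142, 138, 136 and 138 CPM. The corresponding RPE values were 379, 404, 479 and 374 CPM in WT mice and 142, 148, 152 and 139 CPM in KO mice. Adipor1 fell by 2.11 on the log2 scale (SE 0.04, adjusted p = 4.61e-13) in retina and fell by 1.49 on the log2 scale (SE 0.09, adjusted p = 0.000207) in RPE, and reads from the gene remained in KO tissue. In single cells, Adipor1 in rods was 548, 502 and 723 CPM in WT mice at P19, P25 and P30 and 80.6, 118 and 114 CPM in KO mice.

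To show which isoforms belong to which tissue, WT RPE was compared with WT retina, libraries that also serve as controls in the comparisons of genotype. The RPE preparation carried its markers, all 12 of 12 RPE markers being higher than in retina (median log2 difference 8.70), and those of other cells of the back of the eye. Higher were also 5 of 5 markers of muscle (median 9.20), 5 of 5 of scleral fibroblasts (7.77), 5 of 5 of choroidal melanocytes (8.04), 5 of 5 of erythrocytes (4.90) and 6 of 7 of endothelium (1.78). Rod RNA was also present and uneven, rod markers summing to 1358, 18129.9, 18193 and 1945 CPM in the WT RPE libraries. The values are therefore those of the whole preparation, and the part of the other cells in them was not tested. Of the 6 carriers of glucose and lactate, Slc2a1, Slc16a1 and Slc16a8 were higher in RPE than in retina and Slc2a3, Slc16a3 and Slc16a7 were lower. Of the 35 members, 27 differed at adjusted p under 0.05, 10 higher and 17 lower in RPE, beside 81.9% of all genes tested (41.4% higher and 40.4% lower), and their median log2 difference was -0.24 beside 0.00 over all genes. With library totals in place of TMM, the median over all genes moved to -0.26, and 30 members passed, 9 higher and 21 lower. Leaving out RPE replicates 2 and 3, a choice made after the rod RNA was seen, gave 29 members, 10 higher and 19 lower, Pfkl and Eno1 being added. The shares of all genes called under these alternatives are not given here.

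Levels of different genes are set side by side only per length, as RPKM over the annotated exons (mean ± SD, n = 4). RPKM were scaled within each tissue, whereas the log2 differences come from the comparison of both tissues. The ratio of an RPE to a retina RPKM therefore need not match the log2 difference. Among the transport proteins, Slc16a8, the lactate transporter of the RPE's basal side, reached 643 ± 122 RPKM in WT RPE and 1.09 ± 0.459 in WT retina, a log2 difference of 9.51 (SE 0.44, adjusted p = 6.68e-07). Slc2a1, the main glucose carrier of the blood-retinal barrier, reached 470.0 ± 45.5 RPKM in RPE and 63.5 ± 5.26 in retina. Bsg, which encodes basigin, had the highest RPKM of the members in RPE, 1834 ± 225. That ranking is limited by the uncertain bulk levels of members with near-identical copies, which are named further on. Slc16a1, the lactate transporter of the apical side, stood at 233 ± 41.2 RPKM in RPE and 56.5 ± 2.65 in retina. The dehydrogenase subunits ran opposite ways. Ldhb, whose enzyme favors lactate as substrate, was 248 ± 37.3 RPKM in RPE and 87.6 ± 3.42 in retina, and Ldha, whose enzyme favors making lactate, was 76.2 ± 25.1 RPKM in RPE and 298 ± 14.04 in retina. Ldha in WT RPE followed the rod markers, and its log2 difference of -1.65 became -2.17 without RPE replicates 2 and 3.

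From hexokinase to phosphofructokinase 4 of 6 members were lower in RPE, and from aldolase to pyruvate 6 of 9, with none higher in either stretch, beside 40.4% of all genes lower and 41.4% higher. Hk2, the hexokinase that photoreceptors use to trap glucose, was lower in RPE, with a log2 difference of -2.25 (adjusted p = 0.0211), and the call was lost when WT replicate 3 or WT replicate 4 was left out of both tissues (adjusted p = 0.0551 and 0.0518). Hk2 was highest in the RPE libraries with the most rod RNA, as were Slc2a3 (2.58, 32.5, 18.8 and 4.34 CPM in WT RPE) and Slc16a3 (6.58, 21.4, 16.4 and 3.72 CPM), and without RPE replicates 2 and 3 the log2 difference of Hk2 was -4.45. Pfkfb2, which makes the fructose bisphosphate that activates phosphofructokinase, differed by -2.55, Slc2a3, the neuronal glucose carrier, by -2.71, Pkm, the last enzyme of glycolysis, by -1.03, Slc16a3, an exporter of lactate, by -1.89 and Slc16a7 by -1.44. Of the 6 members for the carrier, the kinases and the catalytic subunit of pyruvate dehydrogenase, 4 were higher in RPE and none lower, beside the same shares: Pdk2, a pyruvate dehydrogenase kinase (1.90), Mpc1 and Mpc2, which together form the pyruvate carrier (1.05 and 0.32), and Pdha1, the catalytic subunit of pyruvate dehydrogenase (0.63). Txnip, which holds back glucose uptake, was also higher in RPE, by 3.23.

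In 1-month-old KO retinas, the hexokinase Hk1, the triose phosphate isomerase Tpi1 and 8 other members were higher than in WT retinas, and the lactate transporter Slc16a1, the regulatory kinase Pfkfb2 and the pyruvate kinase Pkm were lower. Of the 35 members, 13 passed adjusted p 0.05, 10 higher and 3 lower in KO, beside 30.9% of 19381 genes tested (16.2% higher and 14.7% lower), so that the members' share was close to that of all genes. Only 2 of the 13, Slc16a1 and Pfkfb2, also changed by at least 1.5-fold, beside 10.0% of all genes. The values of all KO libraries lay outside those of all WT libraries for 15 members, 12 above and 3 below, beside 31.4% of all genes. The members' median log2 fold change was 0.05, beside 0.00 for all genes. With library totals in place of TMM, the median of all genes moved to 0.11 and 21 members passed, 19 higher and 2 lower, so the smaller increases given below are relative to the TMM scale. DESeq2 called 16, adding Pfkp, Aldoc and Ldha, and a single fit of all 16 bulk libraries called 5 (Pfkl, Pfkfb2, Tpi1, Slc16a1 and Pdk3). For these and the other retina counts under alternatives, the shares of all genes called are not given here. Such counts are not results about the members. In these bulk samples, fewer cells of a type and less RNA per cell cannot be told apart.

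Markers of several cell types moved with genotype in the same libraries. The 12 rod markers summed to 75002, 75101, 69339.8 and 69045 CPM in WT retinas and to 40602, 38972, 39236 and 35809.6 CPM in KO retinas, with 11 of 12 lower in KO and none at 0. The 9 microglia markers summed to 59.7, 60.8, 62.2 and 59.3 CPM in WT and 189.5, 192, 219.9 and 209 CPM in KO retinas, and 9 of 9 were higher. Müller glia markers, led by Glul, were higher for 9 of 12 and lower for 1, with sums of 4923, 5368, 4972 and 5164 CPM in WT and 6734, 6657, 6454 and 6830 CPM in KO retinas, and Gfap, a marker of astrocytes and reactive Müller glia, rose by 3.41 on the log2 scale (SE 0.12, adjusted p = 3.40e-10). The part of these shifts in the members' values was not tested in bulk, and the single-cell values by class are given further on.

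**Figure D1:**
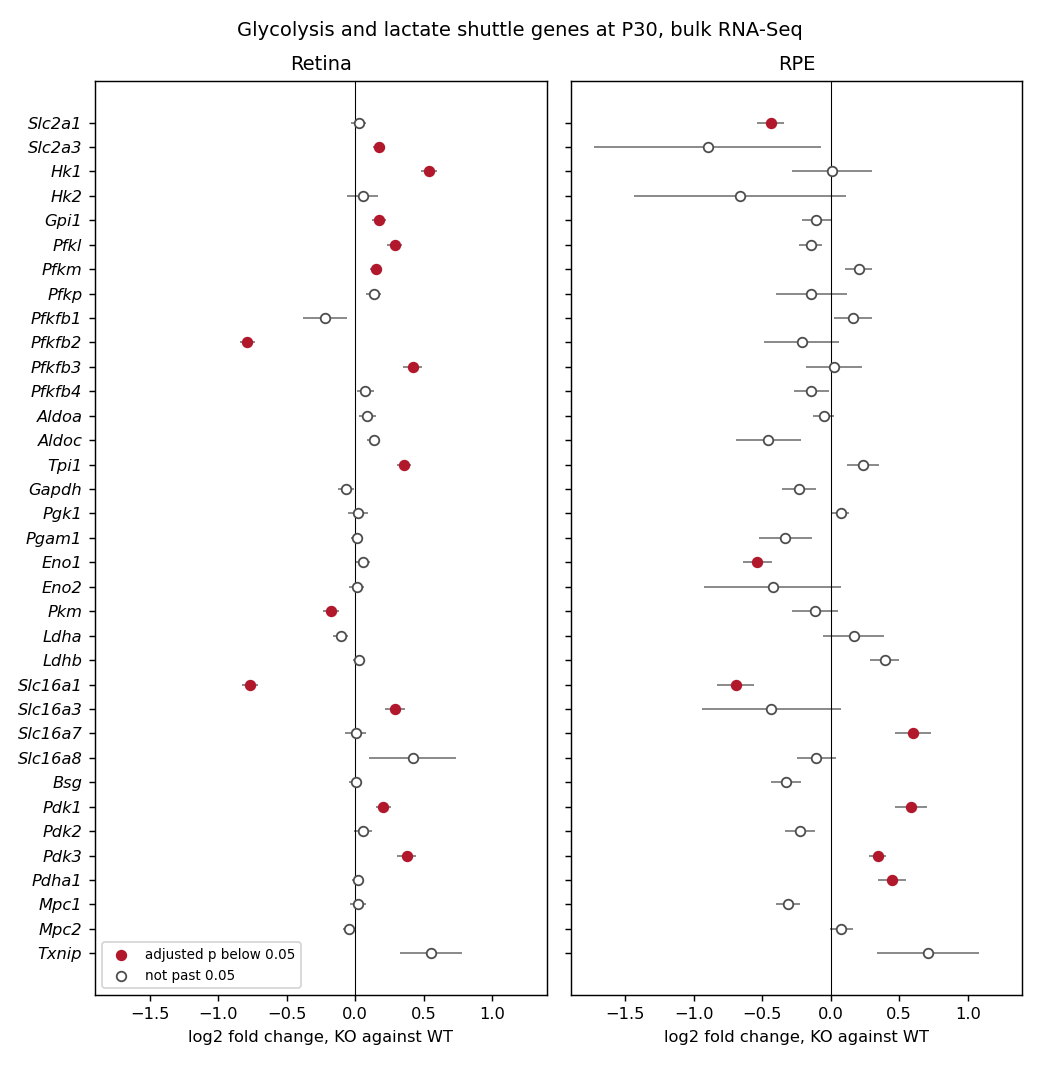
Log2 fold change of KO over WT (horizontal axis, with standard error bars) for all 35 members in pathway order (vertical axis), in retina and in RPE, with 4 libraries per genotype; filled red points passed adjusted p 0.05 and open points did not. Slc16a1 lay to the left in both tissues, and Pfkfb2 passed in retina.

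Glucose enters retinal cells through Slc2a1 and, in neurons, Slc2a3, and is then phosphorylated by Hk1 or Hk2. Slc2a1 was 205, 247, 212 and 227 CPM in WT retinas and 228, 225, 220.0 and 233 CPM in KO retinas, overlapping ranges with a log2 fold change of 0.03 (SE 0.05, adjusted p = 0.767). Slc2a3 rose by 0.18 on the log2 scale (SE 0.04, adjusted p = 0.00868). Hk1, the hexokinase found in most neurons, was 681, 751, 698 and 703 CPM in WT and 994, 954, 1103 and 1062 CPM in KO retinas. All 4 KO libraries lay above all 4 WT libraries, and Hk1 rose by 0.54 on the log2 scale (SE 0.06, adjusted p = 1.33e-05), close to 1.5-fold but short of it. Hk2 overlapped between genotypes, at 391, 546, 352 and 368 CPM in WT and 476, 402, 424 and 417 CPM in KO retinas, with WT replicate 2 the highest library of all 8 and a log2 fold change of 0.05 (SE 0.11, adjusted p = 0.764). Without WT replicate 2, Hk2 passed (log2 fold change 0.22, adjusted p = 0.0202), and without WT replicate 3 its sign turned (-0.02).

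Phosphofructokinase commits sugar to glycolysis and exists as the liver, muscle and platelet forms. Pfkl, the liver form, was 414, 428, 387 and 401 CPM in WT and 510.4, 454, 499 and 527 CPM in KO retinas. The KO libraries all stood above the WT libraries, and Pfkl rose by 0.29 on the log2 scale (SE 0.05, adjusted p = 0.00111). Pfkm, the muscle form, rose by 0.15 on the log2 scale (SE 0.04, adjusted p = 0.0145), and Gpi1, which converts glucose 6-phosphate to fructose 6-phosphate, rose by 0.17 on the log2 scale (SE 0.05, adjusted p = 0.0202), a call lost without WT replicate 3 or WT replicate 4, after which 12 members passed. Pfkp, the platelet form, had a log2 fold change of 0.14 (SE 0.05, adjusted p = 0.0697). The members that set the phosphofructokinase activator moved apart. Pfkfb2, the form of rods, was 401, 365, 446 and 422 CPM in WT and 231, 242, 237 and 237 CPM in KO retinas, where no KO library came near a WT library, and it fell by 0.79 on the log2 scale (SE 0.06, adjusted p = 1.83e-07). Pfkfb3, the inducible form, rose by 0.42 on the log2 scale (SE 0.07, adjusted p = 0.000408), while Pfkfb1 and Pfkfb4 did not pass (-0.22 and 0.07).

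From aldolase to pyruvate, 1 member of 9 rose, 1 fell and 7 did not pass, beside 16.2% of all genes higher and 14.7% lower. Tpi1, which interconverts the triose phosphates, was 734, 726, 689 and 693 CPM in WT and 918, 868, 934 and 927 CPM in KO retinas. Its KO libraries were all above its WT libraries, and it rose by 0.36 on the log2 scale (SE 0.05, adjusted p = 0.000107). Pkm fell by 0.18 on the log2 scale (SE 0.06, adjusted p = 0.0363), a call lost without WT replicate 1 or 2 or KO replicate 1 or 2 and with library totals in place of TMM. Eno1, the widespread enolase, was 849, 896, 808 and 817 CPM in WT and 887, 839.7, 873 and 899 CPM in KO retinas, overlapping, with a log2 fold change of 0.05 (SE 0.05, adjusted p = 0.485). The rest of this stretch ranged from -0.07 for Gapdh to 0.14 for Aldoc, the aldolase of glia and some neurons (adjusted p = 0.0504). Gapdh, Pgk1, Pgam1, Eno1, Tpi1, Ldha, Aldoa and Pkm have near-identical copies in the mouse genome, so their bulk levels are uncertain. Gapdh at 33.7 ± 3.28 RPKM and Pgk1 at 30.5 ± 2.02 RPKM in WT retina were far below their neighbors Aldoa (703 ± 44.0) and Tpi1 (258 ± 8.38), which are on the same list. How reads shared with copies were counted is not stated in the available sources, and their part in these levels was not tested.

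At the lactate step, neither dehydrogenase subunit passed in retina and 1 transporter fell. Ldha was 987, 1049, 939.7 and 968 CPM in WT and 931, 878, 945 and 916 CPM in KO retinas, with a log2 fold change of -0.10 (SE 0.05, adjusted p = 0.168). Ldhb was 138, 145, 132 and 136 CPM in WT and 134, 132, 148 and 147 CPM in KO retinas, with a log2 fold change of 0.03 (SE 0.05, adjusted p = 0.699). The ranges of both subunits overlapped between genotypes. Slc16a1 was 235, 256, 246 and 262 CPM in WT retinas and 155, 157, 144 and 131 CPM in KO retinas. Every KO retina lay below every WT retina, and Slc16a1 fell by 0.77 on the log2 scale (SE 0.06, adjusted p = 2.55e-07). Slc16a3, typical of cells that export lactate, rose by 0.29 on the log2 scale (SE 0.07, adjusted p = 0.00754).

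Bsg overlapped between genotypes, at 621, 639, 582 and 594 CPM in WT and 621, 619, 591 and 611 CPM in KO retinas (log2 fold change 0.00, SE 0.05, adjusted p = 0.972). Slc16a7, a high-affinity monocarboxylate transporter, was low in all retinas, at 15.001, 13.2, 15.3 and 16.6 CPM in WT and 15.6, 14.7, 14.9 and 15.2 CPM in KO (log2 fold change 0.00, SE 0.07, adjusted p = 0.982). Slc16a8 was scarce in retina, at 1.16, 2.15, 3.17 and 3.45 CPM in WT and 2.45, 2.43, 5.45 and 2.99 CPM in KO (log2 fold change 0.42, SE 0.32, adjusted p = 0.354). The genotypes overlapped for all of Bsg, Slc16a7 and Slc16a8.

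Of the 3 kinases of pyruvate dehydrogenase among the members, 2 rose, beside 16.2% of all genes, and the kinases were not tested as a group. Pdk1 was 65.6, 58.3, 61.6 and 64.6 CPM in WT and 77.4, 69.8, 68.4 and 72.9 CPM in KO retinas, without overlap, and rose by 0.21 on the log2 scale (SE 0.05, adjusted p = 0.00863). Pdk3 rose by 0.38 on the log2 scale (SE 0.07, adjusted p = 0.000845), and Pdk2 did not pass (0.06). Pdha1, the subunit these kinases phosphorylate, was 111, 109, 104 and 106 CPM in WT and 106, 111, 114 and 104 CPM in KO retinas, overlapping (log2 fold change 0.02, SE 0.04, adjusted p = 0.785). The pyruvate carrier genes Mpc1 and Mpc2 did not pass (0.02 and -0.04). Txnip was 14.7, 23.5, 14.8 and 15.5 CPM in WT and 20.8, 40.3, 18.6 and 20.6 CPM in KO retinas. Replicate 2 was the highest library in each genotype. KO replicate 2 also stood apart in markers of other tissue, with muscle markers at 89.9 CPM against 4.58 to 6.80 in the other KO retinas, scleral fibroblast markers at 71.5 against 30.6 to 34.6 and erythrocyte markers at 215 against 51.6 to 90.7, and Txnip was higher in the RPE preparation than in retina. In WT retinas muscle markers summed to 7.01, 7.54, 9.16 and 5.07 CPM, scleral fibroblast markers to 18.4, 24.0, 23.5 and 23.0 and erythrocyte markers to 183, 151, 76.5 and 138. KO replicate 2 thus stood less apart from WT retinas in erythrocyte markers than from the other KO retinas. Of the 4 scleral fibroblast markers tested, 3 were higher in KO retina. The part of RNA from other tissue in Txnip was not tested. The fit gave a log2 fold change of 0.56 (SE 0.23, adjusted p = 0.0798), and without KO replicate 2 the log2 fold change was 0.23 (adjusted p = 0.233). With the replicate number as a block, Txnip passed (log2 fold change 0.52, adjusted p = 0.000258; range over all alternatives 0.000258 to 0.350). It also passed with library totals, with no filter on low counts, and without WT replicate 2 (0.75, adjusted p = 0.0263) or KO replicate 3 (0.68, adjusted p = 0.0475). The p-values of all bulk comparisons measure the spread between these samples, since the labels do not say how many animals stand behind each library.

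**Figure D2:**
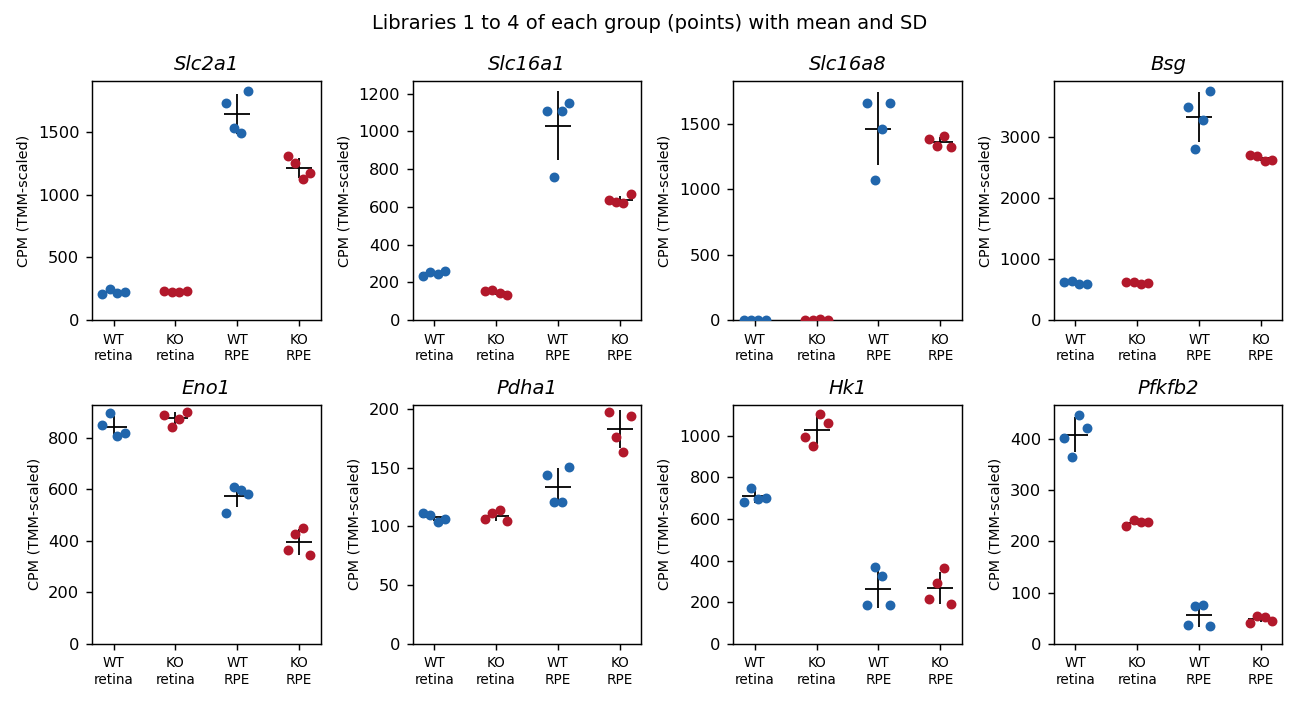
TMM-scaled CPM (vertical axis, starting at 0) of each library for 8 members in WT and KO retina and RPE (horizontal axis); points are libraries and bars are the mean and SD of 4. Slc16a1 was lower in every KO library than in every WT library of the same tissue, and Hk1 was higher in every KO retina than in every WT retina.

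Genes of neighboring pathways, listed apart from the 35 members, were followed in the same fit, in which 16.2% of all genes rose and 14.7% fell. No list was tested against other genes. Of the other genes of glycolysis and gluconeogenesis, 5 of 16 rose and 1 fell in KO retina, among them the hexokinases Hkdc1 (1.62, adjusted p = 7.44e-08) and Hk3 (1.30, adjusted p = 0.00114), Bpgm, which makes 2,3-bisphosphoglycerate (0.38, adjusted p = 9.70e-06), and Tigar, which lowers the phosphofructokinase activator (-0.38, adjusted p = 8.30e-05). Of the other glucose and monocarboxylate carriers, 7 of 19 rose and 1 fell. Slc16a6, a transporter of ketone bodies, had a log2 fold change of -0.92 (adjusted p = 1.52e-09), Slc2a12 of 1.71 (adjusted p = 5.15e-06) and Slc2a13, a carrier of inositol, of 0.39 (adjusted p = 6.73e-05). The glycerol phosphate and aspartate shuttles, which bring the electrons of glycolytic NADH into mitochondria, had 4 of 9 genes higher, Gpd1 (0.90, adjusted p = 0.000140), Slc25a13 (0.64, adjusted p = 0.00725), Gpd1l (0.17, adjusted p = 0.0106) and Gpd2 (0.27, adjusted p = 0.0265), and none lower.

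In the pentose phosphate pathway 3 of 9 rose, H6pd (0.45, adjusted p = 0.00153), Pgd (0.20, adjusted p = 0.00458) and Tkt (0.15, adjusted p = 0.0168), and in glycogen metabolism 3 of 14, the phosphorylases Pygm (0.47, adjusted p = 3.69e-06) and Pygl (0.41, adjusted p = 0.00191) and the synthase Gys1 (0.26, adjusted p = 0.00775). Of 5 genes that make serine and glycine from glycolytic carbon, 1 rose, Shmt2 (0.33, adjusted p = 0.000724). Of the other pyruvate dehydrogenase genes, 1 of 9 rose, the kinase Pdk4 (1.16, adjusted p = 0.0248), and 2 fell, the subunits Pdhb (-0.22, adjusted p = 0.00282) and Dld (-0.19, adjusted p = 0.0106), while of 16 genes of the citric acid cycle 1 rose, Suclg2 (0.45, adjusted p = 0.0143), and 3 fell, Suclg1 (-0.16, adjusted p = 0.0162), Idh3b (-0.11, adjusted p = 0.0289) and Mdh2 (-0.11, adjusted p = 0.0382).

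Hypoxia targets outside glycolysis had 6 of 20 genes higher and 2 lower in KO retina. The heme oxygenase gene Hmox1 (1.70, adjusted p = 3.79e-08), Vegfa (0.36, adjusted p = 0.000339) and the lipid droplet gene Plin2 (0.47, adjusted p = 0.000695) rose, and Hilpda, another lipid droplet gene, fell (-0.70, adjusted p = 1.70e-05). Among 21 regulators of glucose metabolism 7 rose and 4 fell. Nxnl1, which encodes rod-derived cone viability factor, a secreted protein that binds basigin on cones and increases their glucose uptake, had a log2 fold change of -1.05 (adjusted p = 3.29e-09), and its relative Nxnl2 of -0.71 (adjusted p = 1.53e-07). Ppargc1a, a coactivator of mitochondrial genes, fell (-0.37, adjusted p = 4.01e-05), and Mlxipl, a glucose-sensing transcription factor, rose (1.24, adjusted p = 0.00148).

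The RPE libraries differed in how much rod RNA they carried, with replicates 2 and 3 of each genotype standing apart. The 12 rod markers summed to 1358, 18129.9, 18193 and 1945 CPM in WT RPE and to 890.5, 4493, 6370.1 and 1316 CPM in KO RPE, none being at 0, and 0 of 12 passed in edgeR's test (1 at an unadjusted p under 0.05; median log2 fold change -1.29). The 12 RPE markers, led by Ttr, summed to 77395, 51340.4, 73165 and 80385 CPM in WT and 68321, 66086, 68102 and 71392 CPM in KO, with 1 higher and 3 lower, among them Rpe65 (-0.94, adjusted p = 0.0159). Microglia markers were higher for 7 of 9, with sums of 681, 426, 589 and 648 CPM in WT and 768, 808, 823 and 844 CPM in KO RPE, Csf1r being the most abundant. Erythrocyte markers, led by Hba-a1, summed to 2744, 2474, 4305 and 4197 CPM in WT and 1046, 2150.1, 918 and 2579 CPM in KO, where 0 of 5 passed in edgeR's test (4 at an unadjusted p under 0.05; median log2 fold change -1.04). Lens markers, led by Cryaa, were lower for 2 of 6 and summed to 32.3, 289, 30.3 and 627 CPM in WT and 34.9, 25.1, 17.2 and 19.1 CPM in KO. Counts of the 35 members within RPE are therefore given with all libraries, without replicates 2 and 3 of both genotypes, and with the rod marker sum as a covariate, alternatives chosen after the rod levels were seen.

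In KO RPE, the glucose carrier Slc2a1, the enolase Eno1 and the lactate transporter Slc16a1 were lower, and Pdk1, Pdk3, Pdha1 and Slc16a7 were higher. Of the 35 members, 7 passed, 4 higher and 3 lower, beside 6.73% of 18989 genes tested (2.84% higher and 3.89% lower), and 3 of the 7 changed by at least 1.5-fold, beside 4.97%. The genotypes did not overlap for 10 members, 5 above and 5 below, beside 15.2% of all genes, and the members' median log2 fold change was -0.11 beside -0.02. Without replicates 2 and 3, 1 member passed, Slc16a1 (log2 fold change -0.79, adjusted p = 0.0424), and the 6 others of the 7 kept their sign without passing (-0.51 for Slc2a1, -0.61 for Eno1, 0.81 for Slc16a7, 0.62 for Pdk1, 0.27 for Pdk3 and 0.42 for Pdha1). With the rod marker sum as a covariate 10 passed, the 7 and Ldha, Pdk2 and Mpc1. Single libraries decided the count as well. In edgeR's test 0 members passed without KO replicate 1 or KO replicate 4 (with all libraries 10 at an unadjusted p under 0.05, beside 20.3% of all genes, and 10 by DESeq2), and 1, Pdk3, passed without KO replicate 2. Leaving out KO replicate 3 gave 4, without Slc2a1, Slc16a1 and Slc16a7, and leaving out WT replicate 3 gave 4, without Eno1, Slc16a1 and Pdha1. Leaving out WT replicate 4 gave 4, without Slc2a1, Eno1, Slc16a1 and Slc16a7 and with Ldhb added, while 7 passed without WT replicate 1 (Txnip in place of Slc2a1) and 10 without WT replicate 2 (Ldhb, Bsg and Mpc1 added). For all counts under alternatives in RPE, including the fit with the rod covariate, the shares of all genes called are not given here. Those counts are therefore not results about the members. The highest adjusted p over all alternatives was 0.126 for Slc2a1, 0.0788 for Eno1, 0.0688 for Slc16a1, 0.121 for Slc16a7, 0.108 for Pdk1 and 0.116 for Pdha1. Pdk3 had an adjusted p of 0.192 without replicates 2 and 3.

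Slc2a1, through which the RPE passes glucose to photoreceptors, was 1734, 1535, 1494 and 1828 CPM in WT RPE and 1307, 1250.4, 1129.7 and 1174 CPM in KO RPE. All KO libraries lay below all WT libraries, and Slc2a1 fell by 0.44 on the log2 scale (SE 0.10, adjusted p = 0.0354), a call that the replicate block ended (adjusted p = 0.0669; range over all alternatives 9.06e-06 to 0.126). Slc2a3 did not pass (-0.90). Hk2 followed the rod markers, at 16.1, 151, 94.5 and 15.7 CPM in WT and 22.1, 51.1, 74.2 and 27.9 CPM in KO RPE, with replicates 2 and 3 the highest in each genotype. Its log2 fold change of -0.67 (SE 0.78, adjusted p = 0.655) turned to 0.66 without those replicates. Pfkfb2 was also highest in replicates 2 and 3, at 36.9, 74.2, 75.7 and 35.5 CPM in WT and 41.0, 54.5, 52.2 and 44.5 CPM in KO RPE, with a log2 fold change of -0.21 (SE 0.27, adjusted p = 0.689) that turned to 0.25. Pfkl was 264, 301, 299 and 274 CPM in WT and 245, 269, 285 and 227 CPM in KO RPE, overlapping (log2 fold change -0.15, SE 0.09, adjusted p = 0.388).

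Between aldolase and pyruvate, Eno1 alone of 9 members passed, beside 6.73% of all genes (3.89% lower). It was 509, 609, 598 and 580.4 CPM in WT RPE and 362, 425, 451 and 346 CPM in KO RPE, every KO library below every WT library, and fell by 0.54 on the log2 scale (SE 0.11, adjusted p = 0.0230). Ldha, 185, 351, 290.4 and 182 CPM in WT and 257, 284, 329.7 and 263 CPM in KO, again followed the rod markers within WT RPE and did not pass (log2 fold change 0.17, SE 0.22, adjusted p = 0.696). Ldhb was 401, 322, 374 and 463 CPM in WT and 532, 515, 505 and 496 CPM in KO RPE. Its KO libraries all stood above its WT libraries, yet it did not pass (log2 fold change 0.39, SE 0.11, adjusted p = 0.0747; DESeq2 adjusted p = 0.00253, range over all alternatives 0.00253 to 0.295).

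Slc16a1, which moves lactate across the face of the RPE that meets the photoreceptors, was 1108, 759, 1108 and 1150.0 CPM in WT RPE and 635, 626, 619.9 and 666 CPM in KO RPE. The KO libraries were tightly grouped below the lowest WT library, replicate 2, and Slc16a1 fell by 0.69 on the log2 scale (SE 0.13, adjusted p = 0.0199). With any 1 library left out its log2 fold change lay between -0.81 and -0.64. Slc16a8, its counterpart on the choroidal face, was 1662, 1072, 1459.7 and 1659.8 CPM in WT and 1385, 1334, 1404 and 1321 CPM in KO RPE. WT replicate 2, the RPE library with the lowest sum of RPE markers (51340.4 CPM), lay below all KO libraries. The other WT libraries lay above all KO libraries, and Slc16a8 did not pass (log2 fold change -0.10, SE 0.14, adjusted p = 0.703). Without the replicates that stood apart in rod RNA, in both genotypes, its log2 fold change was -0.29 (adjusted p = 0.198). Bsg was 3494, 2793, 3269.8 and 3753 CPM in WT and 2705, 2681, 2596 and 2619.7 CPM in KO RPE, all KO libraries below all WT libraries without passing (log2 fold change -0.33, SE 0.11, adjusted p = 0.140; DESeq2 adjusted p = 0.00442, range over all alternatives 0.00442 to 0.326). Slc16a7 was scarce, at 3.70, 4.64, 5.09 and 4.34 CPM in WT and 6.68, 6.27, 6.69 and 7.33 CPM in KO RPE. Without overlap between genotypes, it rose by 0.60 on the log2 scale (SE 0.13, adjusted p = 0.0308), and the replicate block ended that call as well (adjusted p = 0.0630; range over all alternatives 0.000532 to 0.121).

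Pdha1 and the kinases Pdk1 and Pdk3 rose in KO RPE, and Pdk2 did not pass (-0.22). Pdk1 was 50.5, 58.3, 44.9 and 63.0 CPM in WT and 88.0, 81.0, 71.4 and 85.4 CPM in KO RPE, without overlap, and rose by 0.59 on the log2 scale (SE 0.12, adjusted p = 0.0225). Pdk3 rose by 0.34 on the log2 scale (SE 0.06, adjusted p = 0.0155). Pdha1 was 143, 121, 121 and 151 CPM in WT and 198, 176, 163 and 194 CPM in KO RPE, again without overlap, and rose by 0.45 on the log2 scale (SE 0.10, adjusted p = 0.0361). Mpc1 had KO libraries all below WT libraries but did not pass (log2 fold change -0.31, SE 0.09, adjusted p = 0.0853). Txnip, at 228, 116, 70.8 and 106 CPM in WT and 243, 211, 127 and 271 CPM in KO RPE, overlapped between genotypes (log2 fold change 0.71, SE 0.37, adjusted p = 0.337) and passed only without WT replicate 1 (log2 fold change 1.12, adjusted p = 0.0474).

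In RPE, where 6.73% of all genes passed, the neighboring pathways were counted with all libraries alone. Of the other glycolytic and gluconeogenic genes, 1 of 17 rose, Ldhd, the dehydrogenase of D-lactate (0.70, adjusted p = 0.0148), and 2 fell, among them Fbp1, which runs the phosphofructokinase step backward (-2.10, adjusted p = 0.0225). Of the other carriers, 2 of 19 fell, Slc16a6 (-0.76, adjusted p = 0.00227) and Slc16a14 (-1.57, adjusted p = 0.00876), and of the NADH shuttles 2 of 9 rose, the aspartate and glutamate carriers Slc25a12 (0.33, adjusted p = 0.0126) and Slc25a13 (0.59, adjusted p = 0.0407). Among 21 hypoxia targets Plin2 (1.01, adjusted p = 0.00247) and Hmox1 (0.98, adjusted p = 0.00375) rose and Vegfa fell (-0.60, adjusted p = 0.00698), Vegfa thus passing in opposite directions in RPE and retina. In edgeR's test 0 genes passed in the other lists, with 2 of the other pyruvate dehydrogenase genes, 2 of the citric acid cycle, 1 of the pentose phosphate pathway, 1 of glycogen metabolism, 0 of serine synthesis and 4 of the 21 regulators at an unadjusted p under 0.05, beside 20.3% of all genes.

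Whether the KO effect differed between the tissues was tested directly, with an interaction term in a fit of the 16 bulk libraries, the ones already used in the comparisons above. It differed for 5 of 35 members, beside 8.84% of 21068 genes tested, with a median of -0.20 (RPE effect minus retina effect) beside -0.05 over all genes. The effect lay lower in RPE than in retina for Slc2a1, with a difference of -0.44 (SE 0.11, adjusted p = 0.0193), for Eno1, with -0.57 (SE 0.13, adjusted p = 0.0143), and for Pfkl, with -0.42 (SE 0.12, adjusted p = 0.0422). It lay higher in RPE for Pdha1, with 0.45 (SE 0.10, adjusted p = 0.00981), and for Slc16a7, with 0.61 (SE 0.15, adjusted p = 0.0188). For Slc16a1, which fell in both tissues, no difference between the tissues was detected (0.09, adjusted p = 0.760), nor for Pdk3 (-0.01), while Pdk1 came close (0.41, adjusted p = 0.0512). Pfkfb2 fell in retina alone, but its difference between the tissues did not pass (0.59, adjusted p = 0.297) unless RPE replicates 2 and 3 were left out (1.08, adjusted p = 8.73e-05), which raised the count to 10 members. None of the 5 calls held with genotype and replicate number as a block, with adjusted p of 0.0547 for Pdha1, 0.0612 for Eno1, 0.0655 for Slc16a7, 0.0806 for Slc2a1 and 0.132 for Pfkl, while Mpc1 passed. That block pairs the retina and RPE libraries of 1 number, which the labels do not state. After removing group means, the retina library of each WT number correlated best across genes with the RPE library of its own number in 4 of 4 cases (0.0922 to 0.195), and so did 1 of 4 in KO (-0.0127 to 0.288), genes not being independent replicates. With library totals in place of TMM 7 passed, 2 higher and 5 lower, the median of all genes moving to -0.18. Leaving a replicate out of both tissues gave 0 members without KO replicate 4 (edgeR; with all libraries 10 at an unadjusted p under 0.05, beside 22.3% of all genes, and 7 by DESeq2), 1 without KO replicate 1 (Slc2a1) and 2 without KO replicate 2 (Eno1 and Pdha1). It gave 3 without KO replicate 3 (Slc2a1 and Slc16a7 lost), 3 without WT replicate 3 (Pfkl and Eno1 lost), 4 without WT replicate 4 (Slc2a1, Pfkl and Slc16a7 lost), 5 without WT replicate 1 (Slc2a1 lost) and 7 without WT replicate 2 (Pfkl lost). The shares of all genes called in these alternatives to the interaction fit are not given here, so the counts are not results about the members.

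The single-cell libraries show which cells of the retina carry which isoform. Cells fell into 42 clusters, of which 28 were named from marker genes and 14, holding 4358 cells, were left unnamed. No cluster met the conditions for RPE, so the RPE is described from bulk libraries alone. Values are CPM of all UMIs of a class, and a gene is compared only with itself across classes (mean of the 3 WT libraries). Slc2a1 averaged 362 (range 350.2 to 384) CPM in Müller glia, 85.8 (range 76.5 to 97.4) in rods and 60.1 (range 46.3 to 82.7) in cones, ranges of which those of rods and cones overlapped, whereas Slc2a3 averaged 74.3 in amacrine cells, 55.3 in cone bipolar cells and 5.19 in rods. Among the 6 classes compared Hk2 was highest in photoreceptors, at 731 (range 645 to 812) CPM in cones and 527 (range 407 to 603) in rods against 39.3 in Müller glia, 44.0 in cone bipolar and 18.8 in amacrine cells. In the 28 WT cells named microglia, too few for values by library, pooled Hk2 was 330.0 (95% interval 226 to 466) CPM. Hk1 was spread over neurons, at 239.7 CPM in rods, 191 in cones and 188 in rod bipolar cells, and was 39.2 in Müller glia.

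Among the phosphofructokinases, Pfkl was 193 CPM in rods, 116 in cones, 150.1 in Müller glia and 209 in cone bipolar cells. Pfkp was 202 (range 193 to 209) CPM in rods, 65.0 in cones, 193 (range 157 to 220.0) in Müller glia and 349 in cone bipolar cells, and Pfkm 7.83 in rods, 40.4 in cones and 126 in amacrine cells. Pfkfb2 was highest in rods, at 168 (range 79.3 to 218) CPM, with 41.6 (range 29.0 to 49.4) in cones and 9.30 in Müller glia. Müller glia held the most Aldoc among these 3 classes, 1053 CPM against 240.2 in rods and 249.7 in cones, while Aldoa was 2119.6 in rods, 2198 in cones and 762 in Müller glia. Eno1 was 3476 (range 3187 to 3659.6) CPM in Müller glia and 956 (range 767 to 1209.7) in rods, and Eno2, the neuronal enolase, was 21.3 in Müller glia, 132 in rods and 258 in cones.

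At the lactate step, Ldha averaged 1776 (range 1440.1 to 2349) CPM in rods, 1381 (range 1004 to 2014) in cones and 364 (range 281 to 496) in Müller glia, and Ldhb 498 (range 404 to 622) in Müller glia, 149 (range 103 to 223) in cones and 71.3 (range 41.3 to 123) in rods. Slc16a1 was found in Müller glia at 253 CPM, in rods at 164 and in cones at 156, but at 8.73 in rod bipolar and 14.3 in amacrine cells. Slc16a3 was 49.3 CPM in rods, 49.6 in rod bipolar and 4.59 in Müller glia. Slc16a7 was 54.9 CPM in cone bipolar cells and 0.524 in rods, and Slc16a8 was at most 2.21 among the 6 classes compared. Of the kinases, Pdk1 was 20.8 CPM in rods and 2.93 in cones, Pdk2 45.1 in Müller glia and 17.0 in rods, and Pdk3 32.4 in rods, 33.0 in cones and 7.87 in Müller glia. Txnip was 215 (range 39.4 to 314) CPM in Müller glia, lowest at P30, and 1.30 in rods.

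KO and WT cells were compared within a class over the 3 ages with limma, the ages serving as replicates (6 libraries, 2 residual degrees of freedom), for genes with at least 100 UMIs in the class, which leaves each member's test dependent on its level. A single age has 1 library per genotype, so its ratio has no replicate check and its 95% interval covers counting error alone. WT mice gave 987, 784 and 1339 rods at P19, P25 and P30 and KO mice 1143, 1959 and 1893, with medians of 1175, 1060.5 and 1034 UMIs per WT rod and 1041, 1203 and 1019 per KO rod. Rods of the genotypes lay in different clusters: cluster 0 held 92.8% and 92.1% of KO rods at P19 and P25, cluster 2 held 88.6% and 93.0% of WT rods, cluster 1 held 96.4% of KO rods at P30 and cluster 6 held 97.6% of WT rods at P30. Rod markers summed to 56208, 54446 and 85595 CPM in WT rods and 50787, 52344 and 66729 CPM in KO rods.

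In rods, Hk1 rose and Pfkfb2 and Slc16a1 fell, 3 of 28 members tested beside 8.12% of all genes tested (5 members at an unadjusted p under 0.05 beside 23.0% of all genes; median log2 fold change 0.02 beside 0.03). Hk1 was 231, 247 and 241 CPM in WT rods at P19, P25 and P30 and 372, 403 and 420.2 CPM in KO rods. KO rods were above WT rods at every age, and Hk1 rose by 0.73 on the log2 scale (SE 0.12, adjusted p = 0.00274). Pfkfb2 was 208, 218 and 79.3 CPM in WT rods and 135, 119 and 48.4 CPM in KO rods, lower at P30 in both genotypes, and fell by 0.73 on the log2 scale (SE 0.13, adjusted p = 0.00439). Slc16a1 was 177, 149 and 167 CPM in WT rods and 128, 122 and 92.1 CPM in KO rods. It was lower in KO rods at each age and fell by 0.54 on the log2 scale (SE 0.14, adjusted p = 0.0375), a call that rested on P30, without which 2 members passed, while without P19 4 did, Pdk3 being added. The shares of all genes called without an age are not given here, so these counts are not results about the members. At each age by itself, Hk1 and Pfkfb2 were the members with log2 ratios of 1 sign and at least 0.3 in size, 1 higher and 1 lower of 28, beside 11.4% of all genes: 0.69, 0.71 and 0.80 for Hk1 and -0.62, -0.87 and -0.71 for Pfkfb2. Ldha did not pass in rods, at 1539, 1440.1 and 2349 CPM in WT and 1572, 1439 and 2232 CPM in KO rods (log2 fold change -0.02, SE 0.14, adjusted p = 0.960).

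**Figure D3:**
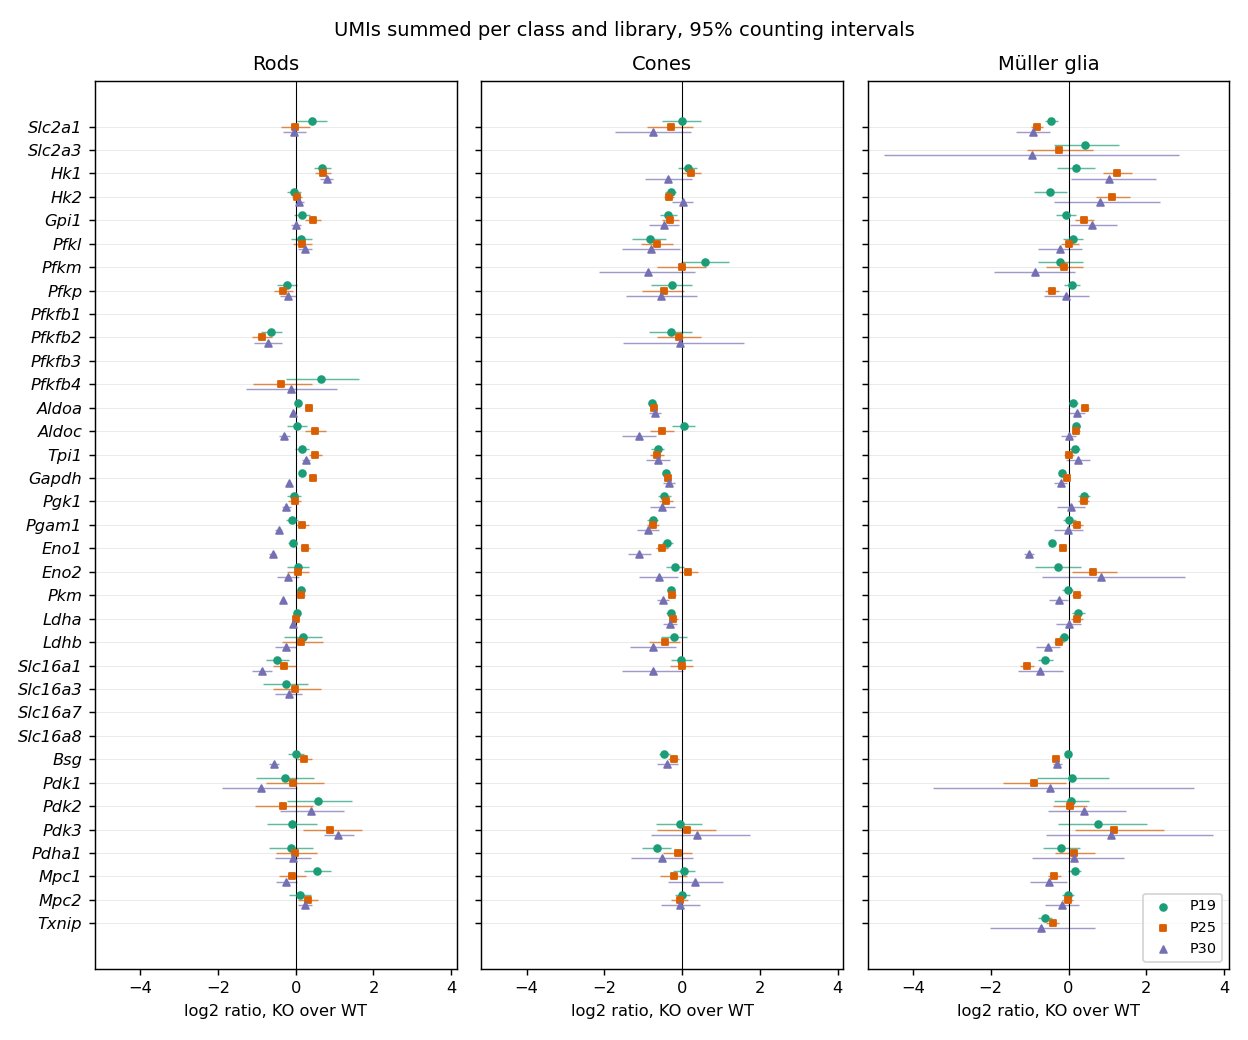
Log2 ratio of KO over WT CPM (horizontal axis) of members (vertical axis) in rods, cones and Müller glia at P19 (green circles), P25 (orange squares) and P30 (purple triangles), 1 library per genotype and age, with bars for 95% intervals of counting error. In rods Hk1 lay right of 0 and Pfkfb2 left of 0 at all 3 ages, and in cones most enzymes from Pfkl to Eno1 lay left of 0.

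Müller glia, which border the photoreceptors and take glucose from retinal vessels, numbered 369, 381 and 130 in WT and 501, 588 and 155 in KO libraries, with medians of 3878, 4447 and 1829.5 and 5000, 5858 and 3075 UMIs, mostly in cluster 5 at P19 and P25 and in cluster 14 at P30. In KO Müller glia, Slc2a1 and Slc16a1 were lower, 2 of 28 members beside 1.80% of all genes tested (8 members at an unadjusted p under 0.05 beside 17.3% of all genes; median log2 fold change -0.03 beside -0.09). Slc2a1 was 384, 350.4 and 350.2 CPM in WT and 282, 201 and 187 CPM in KO Müller glia and fell by 0.72 on the log2 scale (SE 0.13, adjusted p = 0.0407). Slc16a1 was 276, 294 and 189 CPM in WT and 182, 140.3 and 114 CPM in KO Müller glia and fell by 0.80 on the log2 scale (SE 0.14, adjusted p = 0.0385). Each was lower in KO at all 3 ages, with log2 ratios of -0.44, -0.80 and -0.90 for Slc2a1 and -0.60, -1.07 and -0.73 for Slc16a1. Both calls depended on choices of the fit: 0 members passed limma's test with TMM factors, with a prior count of 0.5, or with clusters named by marker score alone, 1 passed (Slc16a1) without the 5% of cells with the most UMIs, 5 passed in edgeR's test, and 5, 3 and 3 passed without P19, P25 and P30. For these fits too, the shares of all genes called are not given here.

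Other members of Müller glia moved with 1 sign at every age without passing. Txnip was 314, 291 and 39.4 CPM in WT and 208, 219 and 24.4 CPM in KO Müller glia (log2 fold change -0.56, SE 0.14, adjusted p = 0.0869; -2.02 to 0.68 for the ratio at P30, from few UMIs). Pdk3, at 6.53, 5.26 and 11.8 CPM in WT and 11.5, 12.3 and 28.5 CPM in KO, had log2 ratios of 0.77, 1.16 and 1.10 (log2 fold change 0.99, SE 0.38, adjusted p = 0.230). With Slc2a1 and Slc16a1 these were the members of at least 0.3 in size at each age, 1 higher and 3 lower of 28, beside 12.8% of all genes. Rod RNA in Müller glia was uneven at P25: rod markers summed to 1930.0, 1669.5 and 6272 CPM in WT and 1695, 5944 and 6848 CPM in KO Müller glia. The part of that RNA in the members' values was not tested, and Müller glia markers summed to 53114, 50392 and 52592 CPM in WT and 45954, 49169.6 and 52892 CPM in KO cells. The extra conditions on cluster names, set after the clusters were seen, kept 1 cluster out of Müller glia, with 2.06%, 2.24% and 1.25% of the WT libraries and 2.36%, 1.47% and 0.317% of the KO libraries at P19, P25 and P30.

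Cones, all in cluster 4, held several glycolytic enzymes at lower CPM in KO mice at every age, and their comparison over the ages was added after these ratios were seen. There were 370, 303 and 114 WT cones and 293, 293 and 199 KO cones, with medians of 4808, 4936 and 2152 and 4006, 3639 and 1783 UMIs, and cone markers summed to 47271, 49564 and 60218 CPM in WT and 44828, 45842 and 54210.3 CPM in KO cones. Of 25 members with enough UMIs, 7 had log2 ratios under 0 of at least 0.3 in size at each age and 0 were higher, beside 3.43% of all genes. Aldoa, which splits fructose 1,6-bisphosphate, was 1742, 1796 and 3057 CPM in WT cones and 1022, 1081 and 1890.4 CPM in KO cones. Pgam1, which moves the phosphate of 3-phosphoglycerate, was 761, 735 and 976 CPM in WT and 450.3, 440.1 and 532 CPM in KO cones. KO cones lay below WT cones at each age for both. Tpi1 was 571, 544 and 732 CPM in WT and 371, 348 and 477 CPM in KO cones, Pfkl 100.1, 102 and 145 and 56.0, 65.3 and 83.4, and Eno1 749, 682 and 972 and 574, 478 and 454. The remaining members of the 7, Gapdh and Pgk1, which act in turn on the triose phosphates, had log2 ratios of -0.40, -0.38 and -0.34 and of -0.46, -0.42 and -0.51 at P19, P25 and P30.

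Over the ages, 2 of 25 members passed limma's test in cones, beside 0.0739% of 6768 genes: Aldoa fell by 0.73 on the log2 scale (SE 0.07, adjusted p = 0.00698) and Pgam1 fell by 0.79 on the log2 scale (SE 0.09, adjusted p = 0.00942). Tpi1 narrowly missed (log2 fold change -0.63, SE 0.09, adjusted p = 0.0526). At an unadjusted p under 0.05 there were 15 members, all lower, beside 6.87% of all genes, and the members' median log2 fold change was -0.35 beside -0.02. The edgeR test called 9 members, all lower, adding Eno1, Tpi1, Gapdh, Pkm, Pfkl, Bsg and Pgk1, and 7, 3 and 7 members passed limma's test without P19, P25 and P30, the last of which left the batch that holds P19 and P25. The shares of all genes called in these fits are not given here, so these counts are not results about the members. In limma's test 0 genes of the 10 neighboring pathway lists passed in cones (1 of the citric acid cycle and 1 of the hypoxia targets at an unadjusted p under 0.05), and the part of the lower UMI number per KO cone was not tested.

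In rod bipolar cells 1 member of 25 was higher and 0 lower at every age by the same rule, beside 3.60% of all genes: Aldoc, at 65.4, 47.9 and 81.7 CPM in WT and 101, 76.8 and 208 CPM in KO cells. In cone bipolar cells 0 of 32 members met it, beside 1.83%, and in amacrine cells 0 of 32, beside 2.00%, none of these classes having been tested over the ages.

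Differences between classes were tested as the difference of the KO effect within each library, also added after the cone ratios were seen. The KO effect in cones lay below that in rods for 4 of 24 members, beside 1.25% of all genes: Tpi1, with a log2 difference of -0.94 (SE 0.15, adjusted p = 0.00434), Pfkl, with -0.92 (SE 0.18, adjusted p = 0.0157), Aldoa, with -0.84 (SE 0.16, adjusted p = 0.0148), and Pgam1, with -0.67 (SE 0.15, adjusted p = 0.0452). At an unadjusted p under 0.05 there were 13 members, beside 12.3% of all genes, and 2, 2 and 11 passed without P19, P25 and P30. Between cones and Müller glia 0 of 24 members passed limma's test, beside 0.00% of all genes, with 12 at an unadjusted p under 0.05, beside 8.66%, and 7, 3 and 7 past the threshold without P19, P25 and P30. For the counts without an age, the shares of all genes called are not given here, so those counts are not results about the members. Between rods and Müller glia 0 of 25 passed limma's test, beside 0.628%, with 2 at an unadjusted p under 0.05, beside 13.0%, although Slc2a1 fell in Müller glia and did not pass in rods (log2 fold change 0.12, SE 0.14, adjusted p = 0.681). Slc2a1 was the 1 member that passed without the 5% of cells with the most UMIs. Leaving out P19 gave 2 members there, Slc2a1 and Hk2.

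The neighboring pathways were counted over the ages in rods and Müller glia, where 8.12% and 1.80% of all genes passed. In rods, of the lists outside the 35 members, 1 of 6 other glycolytic genes rose and 0 fell, 1 of 15 of the citric acid cycle, 1 of 8 of the pentose phosphate pathway, 2 of 3 of serine synthesis and 1 of 14 hypoxia targets rose, and 1 of 1 other carriers and 1 of 17 regulators fell. In limma's test 0 genes passed in rods for the other pyruvate dehydrogenase genes, glycogen metabolism and the NADH shuttles, with 1, 0 and 3 at an unadjusted p under 0.05, beside 23.0% of all genes. In Müller glia 1 hypoxia target of 17 rose and 1 fell, and 0 genes of the other 9 lists passed limma's test, with 2 other glycolytic genes, 2 pyruvate dehydrogenase genes, 3 of glycogen metabolism, 2 of serine synthesis and 2 regulators at an unadjusted p under 0.05, beside 17.3% of all genes.

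The start sites of the members were searched for 5 motifs. RefSeq promoter windows (GRCm38.p6, 250 bases before to 50 after the start) were listed for 32 of 35 members in 52 windows, and none for Slc2a3, Slc16a7 and Bsg. The letters ACGTG, the core of the hypoxia response element, occurred on either strand in 21 of 52 member windows (40.4%) and in 19.6% of all 32851 windows. CACGTG, the E-box read by Myc and by the carbohydrate response factors, which contains ACGTG, occurred in 6 (11.5%) and in 7.15% of all windows. TTCNNNGAA, the letters of the STAT element, occurred in 2 (3.85%; 8.30% of all), the AP-1 element TGANTCA in 1 (1.92%; 7.81% of all) and the photoreceptor element TAATCC in 5 (9.62%; 7.06% of all). By member, ACGTG occurred in 17 of the 32 with a window, a count with no share of all genes beside it. Windows of the same gene were counted apart, although they can overlap and share a match, as for Aldoa. A match describes letters in a window and shows no binding.

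The windows printed, chosen after the matches were seen, belong to 4 members that passed as lower in a tissue or class named above and to Tpi1, which rose in retina and had no match. They show no contrast between members that fell and members that rose, since ACGTG also occurred in windows of Hk1, Pfkm, Pfkfb3, Slc16a3 and Pdk3, which rose in retina, and no searched motif in those of Eno1, which fell in RPE. Capitals mark matches to the searched letters on either strand. Slc16a1, which fell in retina, RPE, rods and Müller glia, lies at chr3:104638414-104638713 on the plus strand, and Slc2a1 at chr4:119108495-119108794 on the plus strand. Pfkfb2 lies at chr1:130715772-130716071 on the minus strand, Pgam1 at chr19:41911621-41911920 on the plus strand, and Tpi1 at chr6:124814109-124814408 on the minus strand.
Slc16a1: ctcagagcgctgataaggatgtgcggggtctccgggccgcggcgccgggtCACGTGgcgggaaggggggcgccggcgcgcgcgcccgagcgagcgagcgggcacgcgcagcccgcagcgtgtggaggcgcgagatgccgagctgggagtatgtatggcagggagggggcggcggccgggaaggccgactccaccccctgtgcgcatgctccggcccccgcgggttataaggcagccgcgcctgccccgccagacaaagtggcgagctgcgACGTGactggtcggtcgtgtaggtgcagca
Slc2a1: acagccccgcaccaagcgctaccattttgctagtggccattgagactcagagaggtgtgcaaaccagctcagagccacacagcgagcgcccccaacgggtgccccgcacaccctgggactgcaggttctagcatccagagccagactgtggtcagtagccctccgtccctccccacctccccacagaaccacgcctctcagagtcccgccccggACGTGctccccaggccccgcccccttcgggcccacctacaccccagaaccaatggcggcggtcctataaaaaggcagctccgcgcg
Pfkfb2: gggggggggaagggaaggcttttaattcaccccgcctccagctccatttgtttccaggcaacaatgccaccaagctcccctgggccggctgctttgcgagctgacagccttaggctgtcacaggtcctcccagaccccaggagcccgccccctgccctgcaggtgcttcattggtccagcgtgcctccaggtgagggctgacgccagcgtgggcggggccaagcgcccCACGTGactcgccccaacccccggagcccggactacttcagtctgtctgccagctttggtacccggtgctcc
Pgam1: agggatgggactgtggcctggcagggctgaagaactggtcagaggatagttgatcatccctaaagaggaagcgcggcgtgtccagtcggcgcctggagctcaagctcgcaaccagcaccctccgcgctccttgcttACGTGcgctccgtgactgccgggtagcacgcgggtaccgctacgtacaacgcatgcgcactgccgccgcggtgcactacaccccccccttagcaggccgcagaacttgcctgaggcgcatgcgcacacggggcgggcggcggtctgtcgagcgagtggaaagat
Tpi1: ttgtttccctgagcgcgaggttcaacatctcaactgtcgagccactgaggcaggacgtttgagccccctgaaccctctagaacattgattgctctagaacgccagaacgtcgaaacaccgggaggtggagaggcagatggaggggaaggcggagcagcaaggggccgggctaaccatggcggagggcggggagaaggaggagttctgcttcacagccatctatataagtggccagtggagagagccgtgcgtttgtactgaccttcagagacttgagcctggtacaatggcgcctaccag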

How the data were processed

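The bulk tables are read counts per gene, per the labels, made by the authors, whose aligner and counting program are not stated in the available sources; genome mm10, edgeR 3.20.9 and HOMER are named, HOMER without a version or a role. The single-cell matrix, which the authors made with Cell Ranger 2.1 and Seurat 3.2.2, holds the natural log of values scaled per cell, logged a second time, where counts had been foreseen. Inverting both steps gave whole UMI counts for all but 7 of 46532493 values (tolerance 0.01), in 7 cells, which were rounded. Cells were assigned to libraries by the prefix of their barcode.

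Bulk genes passing filterByExpr were tested within each tissue, and for the interaction over all libraries, with edgeR 4.0.16 (quasi-likelihood, TMM, Benjamini-Hochberg over all genes), and DESeq2 1.42.0 and limma 3.58.1 served as alternatives. Standard errors are the size of the log2 fold change over the square root of F. The labels do not state that libraries were paired. After removing group means, residuals of WT and KO libraries of the same number correlated by 0.171 to 0.325 in retina and by 0.411 to 0.746 in RPE across genes, the best match being the library's own number in 2 of 4 retina and 1 of 4 RPE cases. The replicate number was tried as a block. Replicate pairs differed beyond counting noise in all 24 cases, by chi-square over degrees of freedom of 4.05 to 177.

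Cells were clustered with leidenalg 0.10.2 (resolution 1, 2000 variable genes, 30 components) and clusters named from 18 marker lists. After the clusters were seen, conditions were added: a marker z-score above 0.5, own markers among the 10 leading genes and, for RPE, Rpe65 in at least 50% of cells, a share raised after 1 cluster was seen. No doublet caller was run. UMIs summed per library and class were tested as log2 CPM (prior count 2) with limma over the ages, adjusting over all genes with at least 100 UMIs. Ratios at 1 age add 0.5 UMI and carry exact 95% intervals.

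Values in every library were given for members past adjusted p 0.05 with a fold of at least 1.5 in either tissue, for members past the interaction, and for Slc16a8, Bsg, Ldha, Ldhb, Hk2 and Txnip. Hk1 and Tpi1 were also shown in full after their values were seen. From 10 pathway lists, up to 4 genes with the smallest p were named, and in single cells the members with at least 100 UMIs and a log2 ratio of 1 sign and at least 0.3 in size at each age. Some genes of these lists are not reported here. The members and lists were chosen with earlier results of these data known. The tests were also run on simulated counts, whose rates of recovery and false calls are not given here. Simulated libraries were drawn independently, and for the interaction with 1 mean per gene for both tissues. Of 2 bulk identifiers with the symbol Aldoa, the longer gene was used.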

Additional observations from a re-analysis of the deposited data

Results flagged for a closer look

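In 56 groups of 4 libraries, 3 had a library far from the rest, where about 1 in 20 would by chance. Slc16a1 in WT RPE was lowest in replicate 2, at 759 CPM with the nearest library at 1108, a gap of 0.892 of the range. Txnip in KO retina was highest in replicate 2, at 40.3 CPM with the next at 20.8 (0.897 of the range), and in WT retina also in replicate 2, at 23.5 CPM with the next at 15.5 (0.905 of the range). KO retina replicate 2 also held the highest muscle, scleral fibroblast and erythrocyte marker sums of the KO retinas (89.9, 71.5 and 215 CPM). Why replicate 2 stood apart was not tested.

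The KO effect differed between RPE and retina by the interaction test for Pdha1 (0.45), Eno1 (-0.57), Slc16a7 (0.61), Slc2a1 (-0.44) and Pfkl (-0.42), on the log2 scale as RPE minus retina. None of these calls held with genotype and replicate number as a block.

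Between cones and rods the difference of the KO effect passed limma's test for Pfkl (-0.92), Aldoa (-0.84), Tpi1 (-0.94) and Pgam1 (-0.67). Further members had opposite signs in a pair of classes at every age, but their difference missed the threshold: Gpi1 between cones and rods (-0.57), Aldoa (-0.98), Tpi1 (-0.76), Pgk1 (-0.74) and Ldha (-0.43) between cones and Müller glia, and Pgk1 (-0.38) and Mpc2 (0.29) between rods and Müller glia. Some of these signs rest on log2 ratios whose intervals of counting error include equal levels in KO and WT. In Müller glia such ratios were 0.0007 for Ldha at P30 (-0.31 to 0.33) and 0.017 for Tpi1 at P25. In rods Gpi1 had 0.0076 at P30. Of these further members only Aldoa had no such ratio at any age in either class. No share of all genes with opposite signs is given here. The cause of the differences between classes was not tested.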

How the results depend on the processing

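Of 742 bulk values of named members under alternatives, 606 kept their direction and side of the threshold. Of the others, 40 passed newly, 67 no longer passed and 29, of 10 members, turned sign. These named members were the ones given in every library by rule, so Hk1, Tpi1 and Pdk3 are not among them. Values of single cells are not counted here, while those between WT tissues, which hold no KO effect, are. Of the 315 values of members that passed, 248 still passed, 67 did not and none turned. The cause of the changes below was not tested. Counts of members below stand without the share of all genes called under the same alternative, so they show dependence on processing alone.

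In retina, 21 members passed with library totals, 2 with a fold of at least 1.5, 5 with all 16 libraries in 1 fit, and 12 to 15 with a library left out. In RPE, 3 passed with the fold, 1 without replicates 2 and 3, and 0 to 10 with a library left out (edgeR; 10 at an unadjusted p under 0.05 and 10 by DESeq2 with all libraries). In the interaction, 10 passed without RPE replicates 2 and 3 and 0 to 7 with a replicate left out (edgeR; 10 unadjusted and 7 by DESeq2). With genotype and number as a replicate block across tissues 1 member passed, Mpc1, none of the 5. Whether the numbers pair the tissues is open: the best match across genes was the library's own number in 4 of 4 WT and 1 of 4 KO cases (correlations of 0.0922 to 0.195 and -0.0127 to 0.288). Between WT tissues, leaving out a replicate gave 24 to 29. The replicate block within each tissue changed the calls of Txnip in retina and of Slc2a1 and Slc16a7 in RPE, and no other call.

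In rods 2 to 4 members passed with an age left out. In Müller glia 5 passed in edgeR's test, 0 with a prior count of 0.5, with TMM factors or with marker score alone (limma; 8 unadjusted), 1 without the cells with the most UMIs, and 3 to 5 with an age left out. In cones 9 passed in edgeR's test and 3 to 7 with an age left out. For the differences, 2 to 11 passed between cones and rods, 3 to 7 between cones and Müller glia and 0 to 2 between rods and Müller glia with an age left out (limma; 2 unadjusted for the last), and for the last 1 without the cells with the most UMIs.

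Values that turned sign were the following. In retina, Slc16a7 and Bsg were -0.0010 and -0.0010 by DESeq2, -0.0012 and -0.0011 with RLE factors, -0.00065 and -0.00069 without a filter, and -0.00061 and -0.00024 with 16 libraries in 1 fit, and Ldha was 0.0066 with library totals. With a library left out, retina values ranged from -0.057 to 0.055 for Slc16a7, -0.019 to 0.026 for Bsg, -0.013 to 0.078 for Slc2a1, -0.017 to 0.22 for Hk2 and -0.0039 to 0.038 for Pdha1, RPE values from -1.05 to 0.058 for Hk2, and in the interaction Slc16a1 was -0.039 without WT replicate 2 and Txnip -0.064 without WT replicate 2 and -0.034 without KO replicate 4. In RPE, Hk2 was 0.66 without replicates 2 and 3 and 0.69 with the rod covariate, and Pfkfb2 0.25 and 0.16. In the interaction, Slc16a1 was -0.021 with library totals and Hk2 0.65 without RPE replicates 2 and 3, and between WT tissues Pdk1 was -0.16 with library totals.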

Other observations

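No cluster of single cells met the conditions for RPE. A cluster of 231 cells led by Ptgds and Ttr, with Rpe65 in a share of 0.195 of its cells, was left unnamed. Its pooled WT cells held 558 CPM of Slc2a1 (95% interval 514 to 606) and 127 CPM of Slc16a8 (106 to 151).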
